A study of Mus musculus with 9 samples.

Results

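The genes described here are 10 genes of amino acid synthesis and its control in 4T1 tumors of mice treated with BI 853520. They are Phgdh, Psat1, Psph, Shmt2, Mthfd2, Asns, Pycr1, Aldh18a1, Atf4 and Trib3. They were chosen by symbol, as genes of serine synthesis and targets of the transcription factor ATF4, and were found by Entrez identifier among the 18755 genes of the deposited count table. The choice was made with earlier results of these data known. All 10 had counts in every tumor and passed the filter on low counts.

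RNA sequencing was performed on pieces of primary tumors grown from 4T1 cells, a metastatic mammary carcinoma line of BALB/c origin. BI 853520 (BI) is an inhibitor of focal adhesion kinase (FAK), and the comparison asked how tumor transcripts differed after a short treatment with it. All tumors arose from 1000000 4T1 cells placed in a mammary fat pad of female BALB/c mice aged 6 to 10 weeks. The 3 control tumors (tumors 1 to 3) came from mice given 0.5% Natrosol, the vehicle, for 5 days. The 6 treated tumors (tumors 4 to 9) came from mice given BI at 50 mg/kg for 5 days, starting on day 15 after injection. By the study's methods BI was itself dissolved in 0.5% Natrosol and given daily by oral gavage. The vehicle was taken to start on the same day. The hosts were immunocompetent, every tumor came from 1 cell line, and the study kept only tumors whose RNA was of sufficient quality. The labels name each tumor as a separate sample without naming the animal, so p-values measure the spread between these 9 samples.

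Serine is made from a glycolytic intermediate by 3 successive enzymes, PHGDH, PSAT1 and PSPH. SHMT2 and MTHFD2 then pass its carbon to folate inside mitochondria, which feeds nucleotide synthesis. ATF4 is a transcription factor whose translation rises when cells lack amino acids or their endoplasmic reticulum is stressed, and it induces genes of amino acid synthesis and uptake, often through a C/EBP-ATF response element.

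The core of that element, read as TGATGNAA on either strand, was searched for in the RefSeq promoter windows (GRCm38.p6), which run from 250 bases before to 50 bases after each annotated start. It was present for 3 of the 10 genes, against 1219 of the 27025 genes in the promoter table (4.51%). These 3 stretches are shown because they hold every match among the 10 genes. Each has 30 bases, lies on the minus strand and is written 5′ to 3′ along the gene, with the matching letters in capitals. Their mm9 positions came from an exact match that occurred once on the chromosome.
Asns, chr6:7643214-7643243: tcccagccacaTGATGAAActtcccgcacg
Pycr1, chr11:120505147-120505176: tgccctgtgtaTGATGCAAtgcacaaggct
Trib3, chr2:152169764-152169793: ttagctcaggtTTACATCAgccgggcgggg
The match began 23 bases before the annotated start in Asns and 103 bases before it in Pycr1. In Trib3 it began at base 15 of the transcribed part and was on the reverse strand. In GENCODE vM1, used for the mm9 gene positions, starts differ slightly: the Asns stretch lies inside the gene, and the Trib3 match lies just before its start. Of these 3 genes, Asns and Trib3 fell in BI tumors and Pycr1 was not called, as given with their values below. The genes among the 10 without a match were all lower as well. Among 19 other ATF4 targets with a window, 7 held the letters, as did 5 of 13 cytosolic aminoacyl-tRNA synthetases and 0 of 15 genes of folate and glycine metabolism. Of those 7 targets, Chac1 fell in BI tumors, Atf3, Slc7a11, Nupr1, Jdp2 and Vldlr were not called, and Fgf21 was not among the counts. The 5 synthetases (Aars, Gars, Iars, Tars and Yars) fell. Counted with or without a window, 13 of all 20 synthetases fell, against 14.1% of all genes tested. Whether a match went with a fall was not tested. A match describes the sequence only, and a window without one says nothing about binding elsewhere.

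The 9 libraries held between 16931607 and 33850245 counts, and normalization factors lay between 0.984 and 1.02. Of 13966 genes tested, 1973 (14.1%) were lower and 2040 (14.6%) higher in BI tumors at an adjusted p of at most 0.05 (edgeR's quasi-likelihood test, Benjamini-Hochberg adjustment). The median log2 fold change over all genes was -0.0037. The carcinoma keratins Krt8 and Krt18 had mean levels of 478 and 579 CPM (counts per 1000000, TMM-normalized) in vehicle tumors, whereas Epcam was at 2.13 CPM. The labels and the table gave no batch.

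BI tumors held less RNA of nearly all of these genes. Of the 10, 9 were lower, 0 were higher and Pycr1 was not called, against 14.1% of all genes tested that were lower, 14.6% that were higher and 28.7% called in either direction. Because the 10 were chosen with earlier results of these data known, these shares describe them and test nothing. Their median log2 fold change was -0.56. The fall was largest for Asns, at 41.9% of the vehicle level, followed by Phgdh at 48.6% and Trib3 at 51.1%. For 8 of the 10 all 6 BI tumors lay below all 3 vehicle tumors, a pattern that 14.0% of all genes showed. In bulk tissue, fewer cells of a type and less RNA per cell cannot be told apart. At the cutoffs of the study's methods, an unadjusted p up to 0.05 with a 1.5-fold change, 5 of the 10 were lower (Phgdh, Psat1, Mthfd2, Asns and Trib3), against 3.57% of all genes. In the other direction the same cutoffs took 9.57% of all genes and 0 of the 10 (edgeR).

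**Figure D1:**
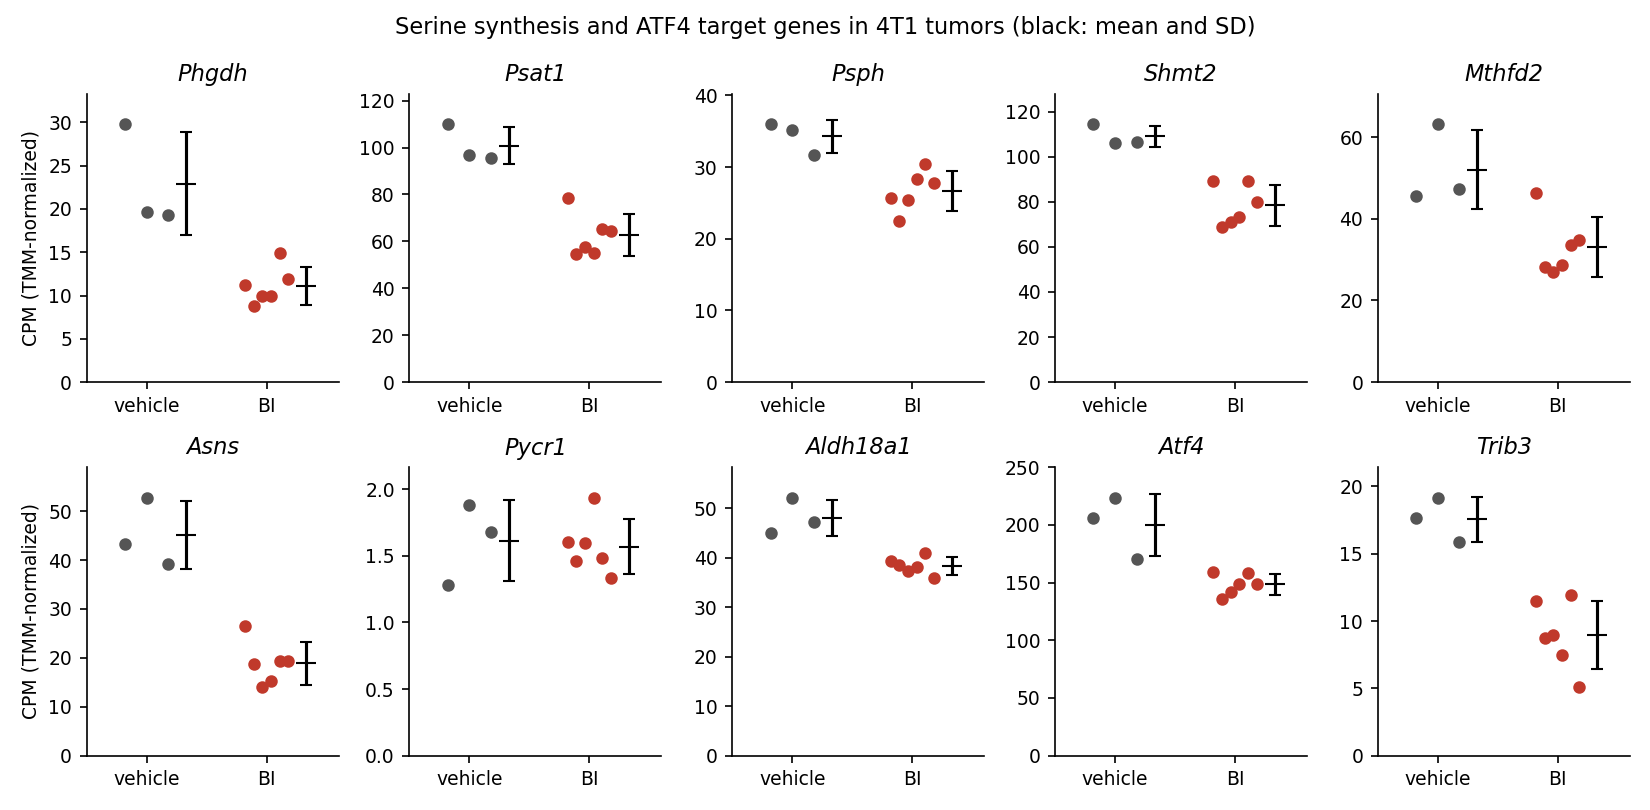
Level of each gene in CPM (TMM-normalized, linear axes from 0) in 3 vehicle tumors (grey) and 6 BI tumors (red), 1 point per tumor, with the mean and SD in black. The groups are separated for every gene except Mthfd2, where 1 BI tumor lies among the vehicle tumors, and Pycr1, where they overlap throughout.

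Phgdh, the enzyme that commits carbon to serine synthesis, lies at chr3:98117093-98143913 (mm9, minus strand). Its level was 29.8, 19.6 and 19.3 CPM in vehicle tumors 1, 2 and 3. In BI tumors the lowest value was 8.76 CPM, the median 10.6 CPM and the highest 15.0 CPM. Vehicle tumor 1 stood highest, and no BI tumor reached the lowest vehicle tumor. The log2 fold change was -1.04 ± 0.17 (SE; n = 3 and 6; 95% confidence interval -1.41 to -0.67; adjusted p = 0.000966, edgeR's quasi-likelihood test).

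Psat1, the aminotransferase of the next step (chr19:15979168-16021827, minus strand), measured 109.8, 96.7 and 95.6 CPM in the vehicle tumors. BI tumors ranged from 54.7 to 78.5 CPM with a median of 61.0 CPM. The groups did not overlap, and BI tumor 4 was the highest of its group. Psat1 fell by 0.69 on the log2 scale (SE 0.104, adjusted p = 0.000621, edgeR), to 62.2% of the vehicle level.

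Psph, the phosphatase that releases serine (chr5:130271434-130293129, minus strand), was at 35.9, 35.2 and 31.7 CPM in vehicle tumors. In BI tumors it lay between 22.5 and 30.4 CPM, with a median of 26.7 CPM. The highest BI tumor, tumor 8, came close to the lowest vehicle tumor without reaching it. Psph showed the smallest change of the 3 enzymes, with a log2 fold change of -0.36 ± 0.0909 (SE, adjusted p = 0.0121, edgeR). Without vehicle tumor 1 this became -0.33 with an adjusted p of 0.0559, no longer called.

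The difference between the first and last enzyme was examined as the ratio of their counts within a tumor. The ratio of Phgdh to Psph was 0.828, 0.559 and 0.608 in the vehicle tumors and 0.352 to 0.492 in the BI tumors. All 6 BI tumors lay below all vehicle tumors, with a difference in mean log2 ratio of -0.67. The exact two-sided permutation test gave p = 0.0238, the smallest that 84 divisions of the tumors allow, and p = 0.0714 after adjustment over 6 ratios. The difference therefore did not pass the threshold after adjustment.

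Shmt2, the mitochondrial enzyme that splits serine into glycine and a folate-bound carbon (chr10:126954195-126959491, minus strand), was at 114, 106 and 107 CPM in vehicle tumors. BI tumors held 68.6 to 89.1 CPM, with a median of 76.5 CPM. The vehicle values lay close together and above all BI values. Its log2 fold change was -0.47 ± 0.0872 (SE, adjusted p = 0.00208, edgeR). Exons of Shmt2 overlap Ndufa4l2 on the other strand, and whether counting used strand is not given in the sources used here, so reads of the overlap may belong to either gene.

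Mthfd2, the mitochondrial dehydrogenase and cyclohydrolase of the following step (chr6:83255685-83267600, minus strand), measured 45.5, 63.1 and 47.3 CPM in vehicle tumors. In BI tumors the lowest value was 27.0 CPM, the median 31.1 CPM and the highest 46.4 CPM. Here the groups overlapped, because BI tumor 4 lay above vehicle tumor 1, and the other 5 BI tumors lay below all vehicle tumors. Mthfd2 fell by 0.65 on the log2 scale (SE 0.161, adjusted p = 0.0108, edgeR). Without vehicle tumor 2, its highest value, the change was -0.49 with an adjusted p of 0.0652, no longer called.

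Shmt2 and Mthfd2 have relatives that do like reactions in other places or at lower levels. The Shmt2 count was 5.07 to 6.76 times that of cytosolic Shmt1 in vehicle tumors and 5.33 to 7.52 times in BI tumors. These ranges overlapped (log2 difference 0.11, exact permutation p = 0.476, adjusted p = 0.476). The ratio of Mthfd2 to cytosolic Mthfd1 differed by -0.26 (exact permutation p = 0.31, adjusted p = 0.4), and that to Mthfd2l by -0.33 (exact permutation p = 0.119, adjusted p = 0.238). No shift between these relatives was detectable at this number of tumors.

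Asns makes asparagine from aspartate and glutamine and lies at chr6:7625169-7643254 (minus strand). Vehicle tumors held 43.3, 52.7 and 39.2 CPM. BI tumors held between 14.1 and 26.5 CPM, with a median of 19.0 CPM. The gap between the groups was wide, and BI tumor 4 again stood highest among the treated tumors. The log2 fold change of -1.25 ± 0.162 (SE; 95% confidence interval -1.61 to -0.90; adjusted p = 0.000226, edgeR) was the largest of the 10 genes.

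Proline synthesis is represented by Aldh18a1, which makes the first intermediate from glutamate, and Pycr1, which makes proline in mitochondria. Aldh18a1 (chr19:40624747-40662953, minus strand) was at 44.97, 52.1 and 47.3 CPM in vehicle tumors and between 35.8 and 41.0 CPM in BI tumors, median 38.3 CPM. The groups did not overlap although the change was small, at -0.33 ± 0.0651 on the log2 scale (SE, adjusted p = 0.00331, edgeR).

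Pycr1 (chr11:120497026-120505083, minus strand) was rare, with 23 to 57 reads counted per tumor. It measured 1.28, 1.88 and 1.68 CPM in vehicle tumors, and 1.33 to 1.93 CPM with a median of 1.54 CPM in BI tumors. The groups overlapped throughout. Its log2 fold change was -0.04 ± 0.21 (SE, adjusted p = 0.909, edgeR), and the 95% confidence interval of -0.50 to 0.42 leaves room for falls as large as those of Psph or Aldh18a1.

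Atf4 itself lies at chr15:80085614-80087970 (plus strand) and was the most abundant of the 10 transcripts. Vehicle tumors held 206, 223 and 170.1 CPM. BI tumors held 136 to 159 CPM, with a median of 149 CPM. All BI tumors lay below vehicle tumor 3, the lowest control. Atf4 fell by 0.43 on the log2 scale (SE 0.082, adjusted p = 0.00273, edgeR). ATF4 is controlled largely in translation, and these counts measure its RNA only.

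Trib3, a pseudokinase that ATF4 induces and that restrains ATF4 in turn (chr2:152163158-152169768, minus strand), was at 17.6, 19.1 and 15.9 CPM in vehicle tumors. In BI tumors the lowest value was 5.10 CPM, the median 8.82 CPM and the highest 11.9 CPM. The groups did not overlap, and BI tumor 9 was the lowest. The log2 fold change was -0.97 ± 0.199 (SE, adjusted p = 0.00395, edgeR).

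Asns was lower relative to Atf4 in every treated tumor. Within a tumor the Asns count was 0.21, 0.236 and 0.231 of the Atf4 count in vehicle tumors and 0.0989 to 0.167 of it in BI tumors. All 6 BI ratios were below all vehicle ratios (log2 difference -0.86, exact permutation p = 0.0238, adjusted p = 0.0714). As for Phgdh and Psph, the smallest p this design allows did not pass the threshold after adjustment over 6 ratios.

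**Figure D2:**
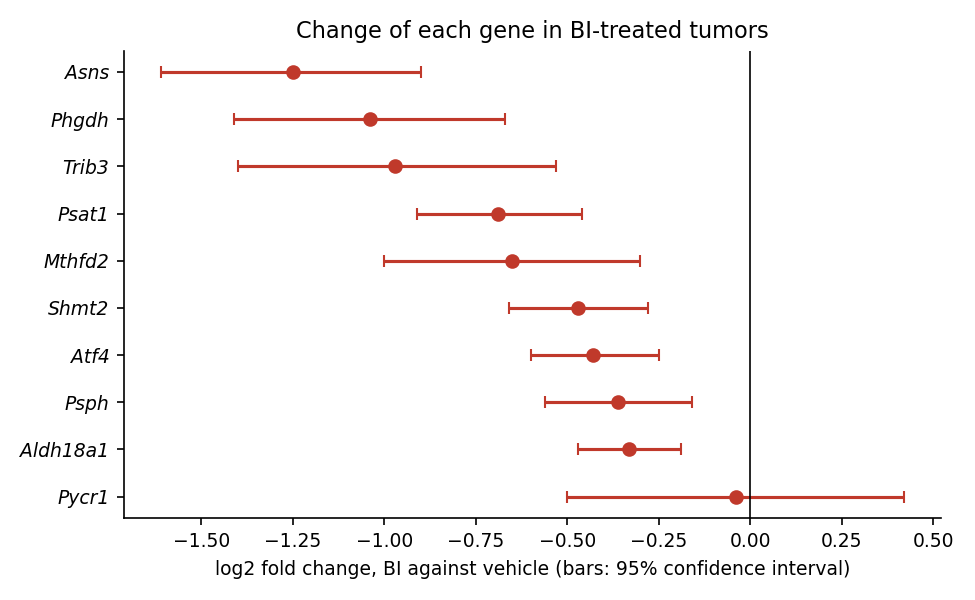
Log2 fold change of each gene, BI against vehicle, from edgeR with its 95% confidence interval (3 and 6 tumors). Asns, Phgdh and Trib3 lie farthest to the left, and only the interval of Pycr1 includes 0.

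Levels between genes were compared per kilobase of gene length (RPKM, from the deposited lengths). In vehicle tumors the mean level ran from Atf4 at 115.9 RPKM through Shmt2 at 47.3, Psat1 at 40.4, Mthfd2 at 25.1, Asns at 23.4, Psph at 22.3, Aldh18a1 at 13.6, Phgdh at 12.2 and Trib3 at 8.56 to Pycr1 at 0.554 RPKM. Neighbours overlapped between tumors for Mthfd2 and Asns, Asns and Psph, and Aldh18a1 and Phgdh. In BI tumors Asns, at a mean of 9.79 RPKM, came after Psph at 17.4, Mthfd2 at 16.0 and Aldh18a1 at 10.9 RPKM, although its range of 7.29 to 13.8 RPKM overlapped those of Mthfd2 and Aldh18a1.

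The 6 BI tumors were not equally low. Over the 9 genes that fell, tumor 4 was the highest treated tumor for 5 genes and tumor 8 for the other 4. Tumor 5 was lowest for 5 genes, and tumors 6 and 9 for 2 genes each. Averaged over the 9 genes, the treated tumors differed from the vehicle mean by -0.46 (tumor 4) to -0.83 (tumor 5) on the log2 scale.

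Among the 45 pairs of the 10 genes, Pearson's r over the 6 BI tumors was positive for 39, with a median of 0.38. The strongest rank agreement was between Shmt2 and Atf4 (r = 0.94, exact permutation p = 0.00278; rho = 1.00, exact permutation p = 0.00278; adjusted p = 0.125 for both). Without the 2 tumors farthest from the Shmt2 median, r was 0.81. By Pearson's r 11 pairs had an unadjusted p of at most 0.05, and by either measure 0 pairs passed after adjustment by exact permutation over 45 pairs. The value 0.00278 is the smallest p that 6 tumors allow, so that after adjustment over 45 pairs no pair could pass on its own. The adjusted test therefore does not decide whether these genes vary together.

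Across all 9 tumors, the genes most like the mean of Phgdh, Psat1, Psph, Shmt2 and Mthfd2 were Ercc1 (Pearson's r = 0.989), Mthfd1l (0.987), Ppp1r13l (0.984), Hmga1 and Hmga1b (0.982 each). These values describe likeness and largely follow the difference between the groups. Hmga1 and Hmga1b had nearly equal mean levels, at 109.3 and 107.6 CPM in vehicle and 58.3 and 57.3 CPM in BI tumors. Whether the same reads were counted under both was not tested, so their counts are uncertain and they may not be separate entries. Mthfd1l, which completes the mitochondrial folate pathway after MTHFD2, fell from 114 ± 9.56 to 78.1 ± 9.11 CPM (SD; n = 3 and 6).

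Genes around the 10 were then counted by list, to be read against the 14.1% lower, 14.6% higher and 28.7% called in either direction among all genes. The lists too were chosen with earlier results of these data known. Of 20 genes of folate and glycine metabolism, 10 were lower and 4 higher, with a median log2 fold change of -0.23. Mthfd1l (-0.54, adjusted p = 0.00142) and cytosolic Shmt1 (-0.60, adjusted p = 0.00313) fell, whereas Ggh, which trims folate polyglutamates, rose (0.44, adjusted p = 0.00231; all edgeR). Atic, of purine synthesis, had the highest level of the list and fell by 0.30. Without vehicle tumor 1, 6 were lower, while the number lower among all genes went from 1973 to 1289.

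Of 13 genes that use or carry serine, 3 were lower and 1 higher (median -0.02), a share near the 28.7% of all genes called. Cth, which makes cysteine from serine-derived cystathionine, fell from 26.8 ± 5.71 to 9.29 ± 2.50 CPM (log2 fold change -1.53, adjusted p = 0.000354, edgeR), a larger estimate than that of any of the 10 genes. The amino acid transporter Slc38a2 fell by 0.38, while Serinc3, the most abundant of the list, rose by 0.49. Of 13 genes of proline, glutamate and asparagine metabolism, 2 were lower and 2 higher (median 0.02), again near that share. Glul, glutamine synthetase, rose (0.57, adjusted p = 0.000227), Prodh, which degrades proline, fell (-0.70, adjusted p = 0.00129), and Aldh4a1, of the same breakdown, rose (0.53, adjusted p = 0.00859; all edgeR). Glud1 had the highest level and was not called (-0.06).

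Of 22 other ATF4 targets, 7 were lower and 2 higher (median -0.10). The cationic amino acid transporter Slc7a1 (-0.60, adjusted p = 0.000132), Cth, and Chac1, which degrades glutathione (-0.85, adjusted p = 0.00173, both edgeR), led the list. Nupr1, the most abundant, was not called (-0.04). The remaining 13 were not called. Of 20 cytosolic aminoacyl-tRNA synthetases, which charge tRNAs with amino acids and include ATF4 targets, 13 were lower and 0 higher by edgeR (median -0.29). Dars (-0.31), Eprs (-0.35) and Mars1 (-0.28) had the smallest p, and Kars, the most abundant, was not called (-0.18, adjusted p = 0.0587, edgeR).

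Upstream of ATF4, 3 of 14 genes of the eIF2 kinases, eIF2 and eIF2B were lower and 1 higher (median -0.05), near the 28.7% of all genes called. Eif2ak4, which encodes the amino acid sensor GCN2, fell by 0.39 and Eif2b5 by 0.22, whereas Eif2ak1, the heme-regulated kinase, rose by 0.25. Eif2s2, the most abundant, fell by 0.26. Of 18 genes of the IRE1 and ATF6 arms of the unfolded protein response, 3 were lower and 3 higher (median 0.01), likewise near it. The chaperones Hsp90b1 and Hspa5 fell by 0.30 and 0.35, and Sdf2l1 rose by 0.39. Of 11 upstream transcription factors and mTORC1 regulators, 3 were lower and 1 higher (median -0.06), a share somewhat above it. Myc fell by 0.51 and Mtor by 0.18, Cebpa rose by 0.82, and Nfe2l2, the most abundant, was not called (0.09).

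**Figure D3:**
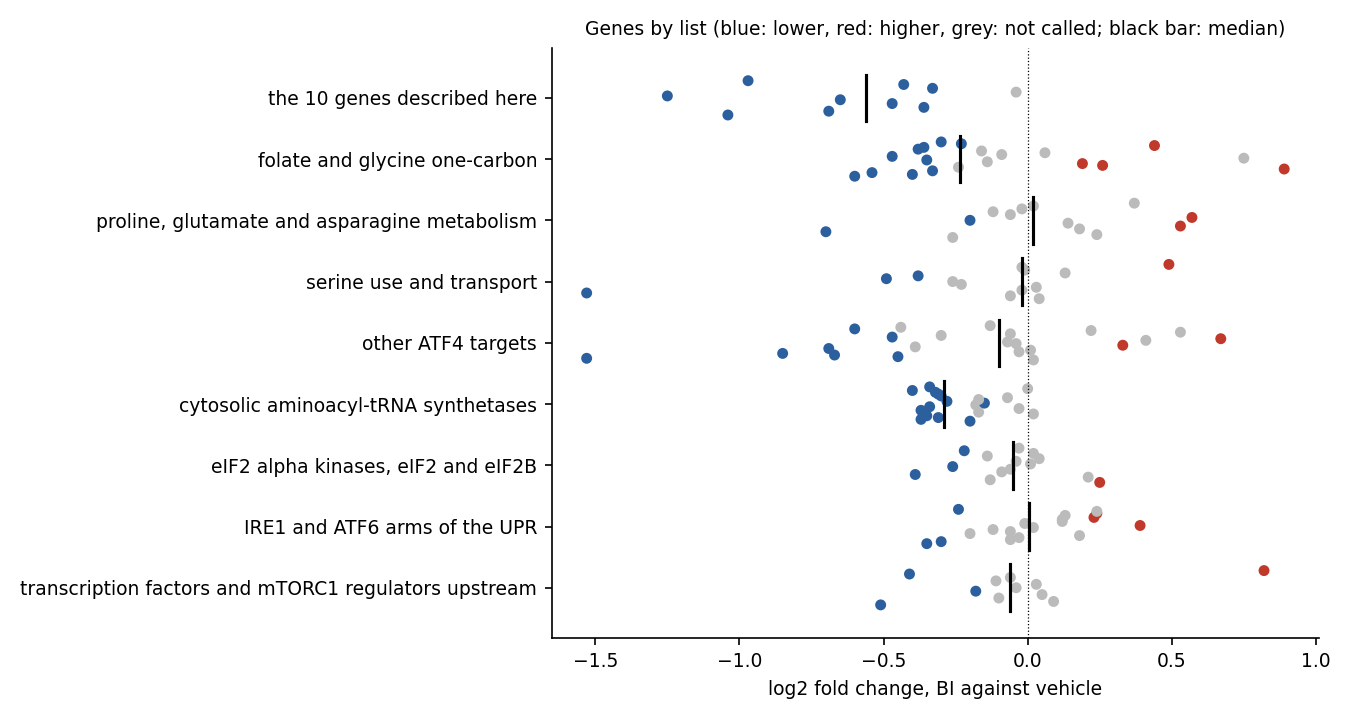
Log2 fold change, BI against vehicle, of each tested gene by list, 1 point per gene, with genes lower (blue), higher (red) or not called (grey) and the median of each list as a black bar. The 10 genes have the lowest median (-0.56), followed by the synthetases (-0.29) and the folate and glycine list (-0.23), while the other medians lie near 0. All lists were chosen with earlier results of these data known.

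Markers of some cell types differed between the groups. Their counts are to be read against the 14.1% lower and 14.6% higher among all genes. Of 6 proliferation markers 3 were lower, with summed levels of 1691 to 2299 CPM in vehicle and 1175 to 1713 CPM in BI tumors. Of 6 carcinoma epithelium markers 2 were lower, Krt8 by 0.28 and Krt18 by 0.50, and the other 4 were not called, with log2 fold changes of 0.59 (Krt7), 0.15 (Krt19), 1.06 (Epcam) and 0.16 (Cdh1). The median of that list was 0.15, and its sum, mostly Krt8 and Krt18, was 959 to 1186 CPM in vehicle and 756 to 964 CPM in BI tumors. Of 4 neutrophil markers 3 were lower, with sums of 499 to 721 CPM in vehicle and 203 to 353 CPM in BI tumors. Macrophage markers were higher for 5 of 6 (1158 to 1610 CPM against 2152 to 2926 CPM), T cell markers for 6 of 7 (57.8 to 61.2 against 101 to 145 CPM) and NK cell markers for 5 of 5 (26.0 to 35.9 against 70.2 to 89.0 CPM). Of the rest, 2 of 5 endothelial, 2 of 4 B cell, 1 of 6 fibroblast and 0 of 4 adipocyte markers were higher by edgeR, the fibroblast share being near that of all genes. Only the B cell list held a marker at 0 counts in a tumor. The part of these shifts in the lower levels of the 10 genes was not tested beyond the ratios that follow.

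Set against the summed counts of Krt8 and Krt18 in the same tumor, Asns differed by -0.88, Phgdh by -0.64 and Trib3 by -0.62 on the log2 scale, each smaller in size than against all counts. Psat1 differed by -0.30 and Mthfd2 by -0.26. Shmt2 (-0.08), Atf4 (-0.02), Psph (0.03), Aldh18a1 (0.07) and Pycr1 (0.36) lay nearer to or above 0. By exact permutation 0 of the 10 passed after adjustment over the 10 genes, the smallest adjusted p being 0.119. For Asns and Trib3, and for no other gene, all 6 BI tumors lay below all vehicle tumors (exact permutation p = 0.0238, adjusted p = 0.119). The keratins themselves fell. The smallest p the design allows is 0.0238, so that after adjustment over 10 genes no gene could pass on its own. The adjusted test therefore does not decide whether a gene was lower relative to the keratins.

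The sign of the estimate changed with the reference for 9 of the 10 genes. For Phgdh, Psat1, Shmt2, Mthfd2 and Trib3 it changed only against the neutrophil markers, which themselves fell. Against the summed counts of 6 proliferation markers the differences resembled those against the keratins. They were -0.82 for Asns, -0.58 for Phgdh and -0.56 for Trib3, with Atf4 at 0.04. In vehicle tumors Top2a (1022 CPM, log2 fold change -0.62) and Mki67 (581 CPM, -0.32) made up most of that sum. Epcam itself was at 2.13 ± 0.603 CPM in vehicle and 4.42 ± 2.96 CPM in BI tumors (SD; n = 3 and 6), a log2 fold change of 1.06 that was not called (adjusted p = 0.0987, edgeR), with 5 of 6 BI tumors above all vehicle tumors. Against Epcam, and so including its own difference, all 10 were negative, from -2.16 (Asns) to -0.92 (Pycr1). Of these, Phgdh, Psat1, Psph, Asns and Trib3 passed the exact permutation test after adjustment (adjusted p = 0.0476, all 6 BI tumors below all vehicle tumors). Against the summed counts of 4 neutrophil markers, whose median log2 fold change was -1.09, only Asns remained negative (-0.13). The other 9 lay between 0.11 (Phgdh) and 1.11 (Pycr1). In vehicle tumors S100a9 (384 CPM) and S100a8 (152 CPM) made up most of that sum. The values of Asns (exact permutation p = 0.619), Phgdh and Trib3 (0.12, exact permutation p = 0.714 for both) lay near 0. Their sign against that reference is therefore not settled. The proliferation and neutrophil references were added after seeing the data, and neither gave a gene that passed the exact permutation test after adjustment.

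**Figure D4:**
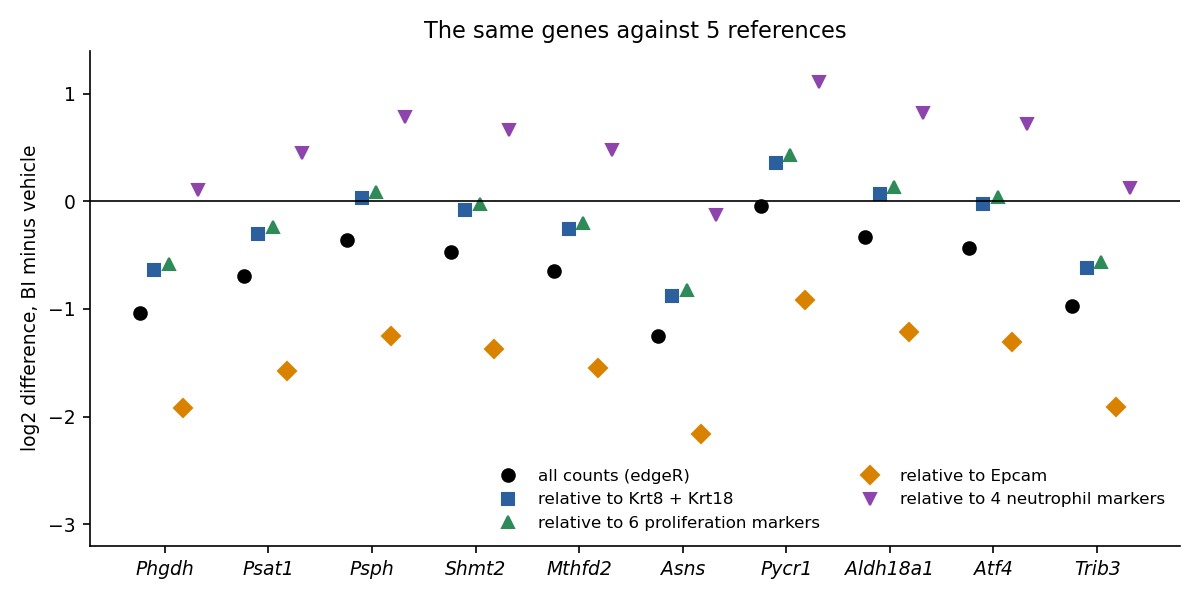
Log2 difference, BI minus vehicle, of each gene against 5 references: all counts (edgeR), Krt8 and Krt18, 6 proliferation markers, Epcam and 4 neutrophil markers. Asns lies below 0 against each of the 5, from -2.16 to -0.13, whereas the other 9 genes lie on both sides of 0. Phgdh, Psat1, Shmt2, Mthfd2 and Trib3 lie above 0 only against the neutrophil markers. Against those markers Asns (-0.13, exact permutation p = 0.619), Phgdh (0.11) and Trib3 (0.12) all lie near 0.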

How the data were processed

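Total RNA of 4T1 tumor pieces was sequenced as paired-end, stranded mRNA libraries of 50 cycles (3 vehicle and 6 BI tumors). The deposited values are raw read counts per gene: per the study's methods, the authors mapped reads to mm9 with STAR, kept unique hits, and counted reads starting in any exon of a RefSeq gene with QuasR. The deposited gene length in bases served for RPKM.

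Genes were named by Entrez identifier through RefSeq (18700 of 18755 matched). The counts were tested in R 4.3.3 with edgeR 4.0.16 (TMM, filterByExpr with a minimum count of 10 and total of 15, quasi-likelihood F test, Benjamini-Hochberg over 13966 genes, adjusted p of at most 0.05). The script was tested on simulated data. It first recovered fewer of the genes simulated with the largest fold than the share required, that requirement was then lowered, and the missed genes were not examined. Ratios of counts, gene pairs and references used exact two-sided permutation tests (scipy 1.17.1). Of these, 1 of the 6 ratios that the adjustment covers is not reported here. Alternatives were RLE scaling, library size alone, other filters, the likelihood ratio test, DESeq2 1.42.0, limma-voom (limma 3.58.1), other references and leaving out each tumor. Positions are mm9 (GENCODE vM1).

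The 10 genes and all lists were chosen with earlier results of these data known. Named genes were all 10 genes, and of each list the 3 called genes with the smallest p and the gene with the highest mean RPKM, plus the 5 genes most like the serine genes. Sds, Fgf21 and Ly6g were not among the counts analysed, and Cbs and Mycn were filtered out. Depth was 16931607 to 33850245 counts.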

Additional observations from a re-analysis of the deposited data

How the results depend on the processing

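Under 7 other settings of scaling, filter and test, all 70 fits of the 10 genes kept their direction and call. Leaving out 1 tumor kept 86 of 90. Psph (range -0.41 to -0.31) was no longer called without vehicle tumor 1, and Mthfd2 (-0.77 to -0.49) without vehicle tumor 2. Pycr1 ranged from -0.17 to 0.07 and changed sign without vehicle tumor 2 (0.07) or BI tumor 9 (0.00). With 1 tumor left out, 1172 to 1980 genes were lower and 1332 to 2026 higher, with the fewest without vehicle tumor 3. There were 8 to 9 lower genes among the 10.

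In the lists, leaving out 1 tumor gave 6 to 10 lower folate and glycine genes (6 without vehicle tumor 1), 1 to 3 lower proline, glutamate and asparagine genes (1 without vehicle tumor 1 or 3), 1 to 4 higher ATF4 targets (4 without BI tumor 4; 1 without vehicle tumor 1, 2 or 3 or BI tumor 7), 0 to 2 higher eIF2 genes by edgeR (0 without vehicle tumor 1 or 2, 2 without BI tumor 4), 1 to 4 lower genes of the IRE1 and ATF6 arms (1 without vehicle tumor 3) and 1 to 3 lower upstream regulators (1 without vehicle tumor 1 or 3 or BI tumor 8). The cause was not tested.

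Relative to Krt8 and Krt18, leaving out 1 tumor moved Psph between -0.01 and 0.12, with -0.01 without vehicle tumor 2 and BI tumors 7 and 9 and -0.00 without BI tumor 8. Atf4 moved between -0.05 and 0.05, and was at 0.05 without BI tumor 5. With Epcam as reference Phgdh (-1.92), Psat1 (-1.58), Asns (-2.16), Trib3 (-1.91) and Psph (-1.25) passed the exact permutation test after adjustment (adjusted p = 0.0476), and Pycr1 (-0.92) and Aldh18a1 (-1.21) turned negative. With the proliferation markers Atf4 was at 0.04. With the neutrophil markers Phgdh (0.11), Psat1 (0.45), Shmt2 (0.66), Mthfd2 (0.48), Atf4 (0.72) and Trib3 (0.12) turned positive. Of these, Phgdh and Trib3 lay near 0 (exact permutation p = 0.714 for both). The proliferation and neutrophil references were chosen after seeing the data. The references differed between the groups themselves: Epcam by 1.06 (not called), Krt8 by -0.28 and Krt18 by -0.50, with medians of -0.38 for the proliferation and -1.09 for the neutrophil markers. These medians are not the shifts of the sums, in which Top2a (-0.62), Mki67 (-0.32), S100a9 (-1.30) and S100a8 (-1.26) weighed most. With 2 vehicle tumors left the smallest exact permutation p is 0.0714, so no ratio could pass. The labels give no pairing of vehicle with BI tumors, so no paired analysis was made.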
